A study of Mus musculus with 121 samples.

Results

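The 10 genes described here encode chaperones and folding enzymes of the endoplasmic reticulum and factors of the unfolded protein response. They are Hspa5, Hsp90b1, Calr, Pdia4, Pdia6, Dnajb9, Herpud1, Xbp1, Atf4 and Ddit3. They were chosen by name for their function, and all 10 stand among the 23946 genes of the deposited expression table. All 10 were also among the 9150 genes kept, a set limited to genes found in 10% or more of the cells of at least 1 of the populations. Detection in a cell means a value of 1 TPM or more, where TPM is a transcript's share of all transcripts in a cell, scaled to a fixed sum.

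The cells were 121 single bone marrow cells of the strain C57BL/6, with the genotype Gfi1-R412X/-, also written HTZ in the labels. Gfi1 is a transcriptional repressor needed for granulocyte formation. Every group carried the mutated allele, and as no unmutated cells were analysed here its effect is not measured. Marrow from crushed hindlimbs was enriched for CD117 (Kit) and sorted by flow cytometry into 46 cells labelled CD11b+ GMP-P and 75 cells labelled GMP. The marker CD11b, an integrin, is carried by maturing myeloid cells.

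All CD11b+ GMP-P cells came from 1 run with a late July date. Of the GMP cells, 13 carried a late July date in their run names (10 without a year and 3 with one) and 62 came from 1 undated run, so population and run cannot be told apart. The authors' second table gives each cell 1 of 12 state names, whose abbreviations are not expanded in the sources used here. The states Myelo-1, Myelo-2, Myelo-3 and Myelo-4 held 5, 18, 1 and 10 cells, all with a late July date. The other granulocytic names were Gran-1 with 14 cells and Gran-2 with 15. MP held 11 cells, Mono 38 and cMoP 5, and the remaining 4 cells were named Multi-Lin (2), MDP (1) or HSCP-1 (1). The sources used here do not give the way states were assigned, and the members may have taken part, so differences between states describe the annotated cells.

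As the labels name no animal, each population is 1 sample without replicates, and no test was made from cells. Levels are mean log2(TPM + 1), and ± gives the SD over cells, which is the spread of single cells rather than an error between replicates. Intervals beside shares of cells are exact (Clopper-Pearson, 95%) and cover counting error only. A difference of at least 1 on the log2 scale is called higher or lower below. TPM keeps no record of read numbers, so depth is unknown and a 0 can be a transcript that was missed.

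Proteins bound for secretion or for granules enter the endoplasmic reticulum as they are made, and chaperones there fold them. When unfolded proteins build up, the sensors IRE1, PERK and ATF6 start the unfolded protein response. IRE1 splices the Xbp1 transcript, PERK raises the translation of Atf4, and cleaved ATF6 enters the nucleus. These factors induce chaperone genes, and under lasting stress ATF4 induces Ddit3. Granulocyte precursors make the primary granule proteins myeloperoxidase (Mpo), neutrophil elastase (Elane), proteinase 3 (Prtn3) and cathepsin G (Ctsg) in large amounts at the promyelocyte stage. Secondary granule proteins such as lactoferrin (Ltf) follow later. The deposited values are per gene, so neither Xbp1 splicing nor the translation of Atf4 can be read from them.

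The promoter elements through which ATF6 and XBP1 are known to act are shown for the members that hold one, as a description. Their part in the transcript levels was not tested. The endoplasmic reticulum stress element (ERSE) was searched as CCAAT, any 9 bases, then CCACG, on both strands, in the RefSeq promoters of the GRCm38.p6 build. Each promoter ran from 250 bases before to 50 bases after the gene's start, and all 10 members matched an entry. The element occurred in 39 of 32851 promoters (0.119%). Among the members it occurred in the promoters of Hspa5, Hsp90b1, Calr and Pdia6, with 2 copies in Hsp90b1. With any last base in place of the G, a search that includes every ERSE by construction, it occurred in 120 promoters (0.365%). This added Pdia4, and Herpud1 with a match from base −18 to base 1 of the gene. ERSE-II, searched as ATTGG, any base, then CCACG, occurred in 12 promoters (0.0365%), 1 of which was that of Herpud1. CCACG alone, which ERSE and ERSE-II contain, occurred in 32.8% of all promoters and in 8 of the 10 members. The 8-base element TGACGTGG, known as the UPRE, occurred in 0.676% of promoters and in 0 of the members. A match is a description of these letters and not a site of binding. The members were chosen by name for their part in this response, so their matches beside the shares of all promoters are not a test.

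The stretches are printed 5′ to 3′ on the gene's own strand, with the element in capitals. They lie at chr2:34772010-34772058 on the plus strand for Hspa5, chr8:84847060-84847108 on the minus strand for Calr, and chr10:86705623-86705671 and chr10:86705518-86705566 on the minus strand for Hsp90b1. Those of Pdia6, Pdia4 and Herpud1 lie at chr12:17266476-17266524 (plus), chr6:47813587-47813635 (minus) and chr8:94386362-94386402 (plus). The elements of Calr and Pdia4 and the second copy of Hsp90b1 are on the opposite strand and so read CGTGG or AGTGG first and ATTGG last.
Hspa5: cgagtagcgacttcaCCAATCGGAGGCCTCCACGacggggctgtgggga
Hsp90b1, first copy: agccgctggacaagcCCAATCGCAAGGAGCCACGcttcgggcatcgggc
Hsp90b1, second copy: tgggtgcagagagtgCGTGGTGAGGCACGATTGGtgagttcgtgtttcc
Calr: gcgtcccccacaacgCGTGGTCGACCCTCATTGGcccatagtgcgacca
Pdia6: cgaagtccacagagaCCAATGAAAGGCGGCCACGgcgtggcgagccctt
Pdia4, any last base: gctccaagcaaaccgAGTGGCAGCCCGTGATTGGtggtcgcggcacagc
Herpud1, ERSE-II: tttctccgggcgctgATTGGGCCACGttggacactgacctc

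The members fell into abundant and scarce transcripts. By mean level over all 121 cells, Hspa5 ranked 133rd of the 9150 kept genes at 8.92, Hsp90b1 150th at 8.74 and Calr 167th at 8.55. Pdia6 followed at 7.47, Herpud1 at 5.90, Xbp1 at 5.30, Atf4 at 5.08 and Pdia4 at 4.85. Dnajb9 (1.74) and Ddit3 (1.12) were far lower. Hspa5 was detected in 119 of the 121 cells, Calr in 118 and Hsp90b1 in 117, whereas Ddit3 was detected in 25 cells (20.7%, 13.8 to 28.97). TPM counts transcripts in proportion to read density per length, so these levels can be set beside each other.

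**Figure D1:**
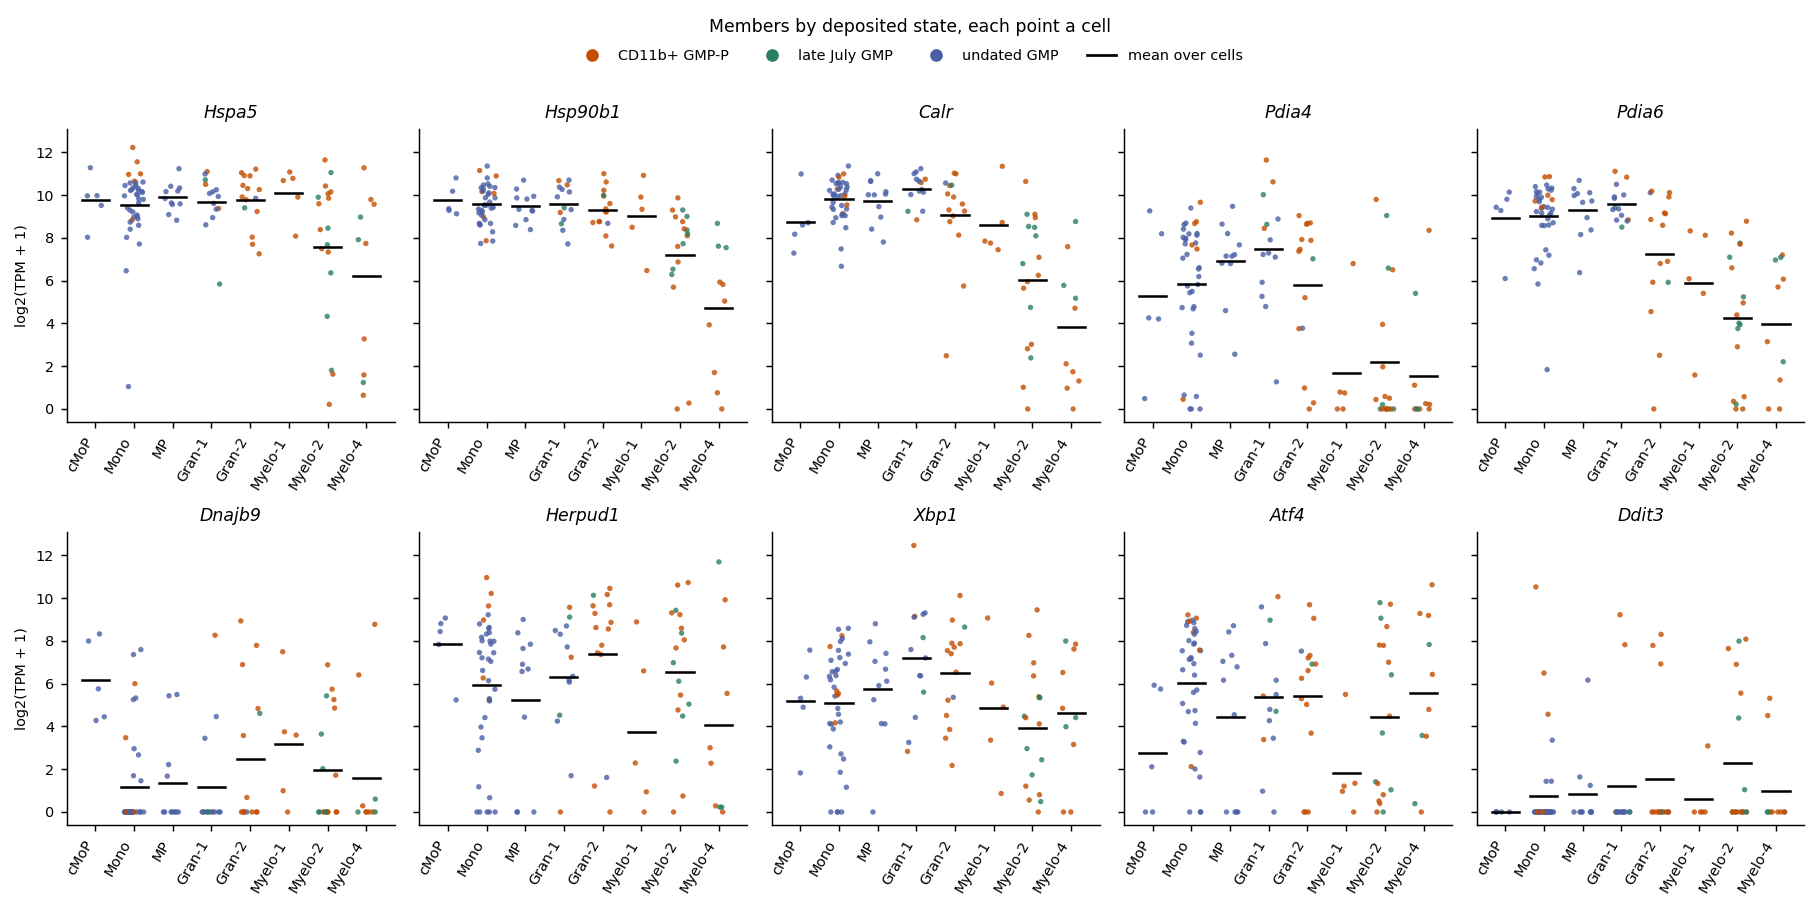
log2(TPM + 1) of each of the 10 members in the cells of each deposited state with at least 5 cells, 1 point per cell coloured by run, with a bar at the mean over cells. The 5 chaperones (Hspa5, Hsp90b1, Calr, Pdia4, Pdia6) are low in Myelo-2 and Myelo-4, Dnajb9 has its highest mean in cMoP at 6.16, and the Ddit3 mean is at most 2.31 in these states.

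The 5 chaperones were lower in the Myelo states than in the states MP and Gran-1, which together with Gran-2 had the highest Mpo means (14.08 in MP, 14.19 in Gran-1 and 14.18 in Gran-2). Of the 25 MP and Gran-1 cells 20 came from the undated run, whereas the 34 Myelo cells all carried a late July date. State and run therefore cannot be told apart for most of these cells, here and wherever these groups are compared below. HSPA5 (BiP) is the Hsp70 chaperone of the endoplasmic reticulum and holds the stress sensors inactive. Hspa5 ranged from 0.21 to 11.65 with a median of 8.42 in the 34 Myelo cells, against 5.84 to 11.23 with a median of 9.94 in the 25 MP and Gran-1 cells. The ranges overlapped, and the Myelo cells spread down to levels that no MP or Gran-1 cell had. The difference of the means was −2.40 (7.37 ± 3.64 in Myelo cells against 9.77 ± 1.07 in MP and Gran-1 cells).

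HSP90B1 (GRP94) is the Hsp90 chaperone of the endoplasmic reticulum and folds integrins and Toll-like receptors. Hsp90b1 ranged from 0 to 10.92 with a median of 7.67 in Myelo cells, against 7.72 to 10.70 with a median of 9.41 in MP and Gran-1 cells, a difference of means of −2.77. Calreticulin, encoded by Calr, is a calcium-binding lectin that holds newly glycosylated proteins, and it is known to bind the precursor of myeloperoxidase. Calr ranged from 0 to 11.35 with a median of 6.10 in Myelo cells, against 7.81 to 11.24 with a median of 10.16 in MP and Gran-1 cells. Its difference of means was −4.30, and the highest Calr value of both groups was in a Myelo-1 cell.

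PDIA4 and PDIA6 are protein disulfide isomerases, which make and rearrange disulfide bonds, and their transcripts had the largest differences among the members. Pdia4 ranged from 0 to 9.80 with a median of 0.23 in Myelo cells, against 1.27 to 11.64 with a median of 7.22 in MP and Gran-1 cells. It was detected in 11 of the 34 Myelo cells and in all 25 MP and Gran-1 cells, and the difference of means was −5.36. Pdia6 ranged from 0 to 8.78 with a median of 4.68 in Myelo cells, against 6.38 to 11.11 with a median of 9.66 in MP and Gran-1 cells. Its difference of means was −5.09.

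The 5 remaining members did not share a direction. XBP1 is the transcription factor that IRE1 activates, and Xbp1 averaged 4.34 ± 2.82 in Myelo cells and 6.58 ± 2.60 in MP and Gran-1 cells, a difference of −2.24. HERPUD1 takes part in the degradation of misfolded proteins at the membrane of the endoplasmic reticulum, and Herpud1 averaged 5.22 ± 3.84 in Myelo cells and 5.83 ± 3.15 in MP and Gran-1 cells. ATF4 is the transcription factor downstream of PERK, and Atf4 averaged 4.25 ± 3.71 in Myelo cells and 4.97 ± 3.29 in MP and Gran-1 cells. Neither Herpud1 (−0.60) nor Atf4 (−0.71) reached a difference of 1.
DNAJB9 (ERdj4) is a co-chaperone of BiP, and Dnajb9 differed by 0.74, being detected in 13 of 34 Myelo cells and 7 of 25 MP and Gran-1 cells. DDIT3 (CHOP) is a transcription factor linked to cell death under stress, and Ddit3 differed by 0.56, with detection in 10 of 34 Myelo cells and 5 of 25 MP and Gran-1 cells. For both, most cells of both groups were at 0 or near it.

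In total, 6 of the 10 members were lower in the Myelo states, where 50.4% of all kept genes were lower, and 0 were higher, where 2.93% of kept genes were higher. Median differences were −2.32 over the members and −1.02 over all kept genes. Among the 888 kept genes that average at least 5 over all cells, 81.6% were lower and the median was −3.07. The members' count was therefore near the background. The differences of Hspa5 and Hsp90b1 were smaller in size than the median of such abundant genes, while those of Calr, Pdia4 and Pdia6 were larger. Pdia4, with a mean of 4.85 over all cells, is not itself in the abundant set. Myelo cells had a median of 2070.5 detected genes and the 20 most abundant genes of each cell took a median of 57.98% of its TPM. In MP and Gran-1 cells these values were 4443 genes and 17.4%. Their part in the differences was not tested. Set as the log2 ratio of mean TPM, which weights the cells with high values, the median of the 5 chaperones was −2.20 in place of −4.30, and Hspa5 (−0.53) was no longer lower by 1.

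**Figure D2:**
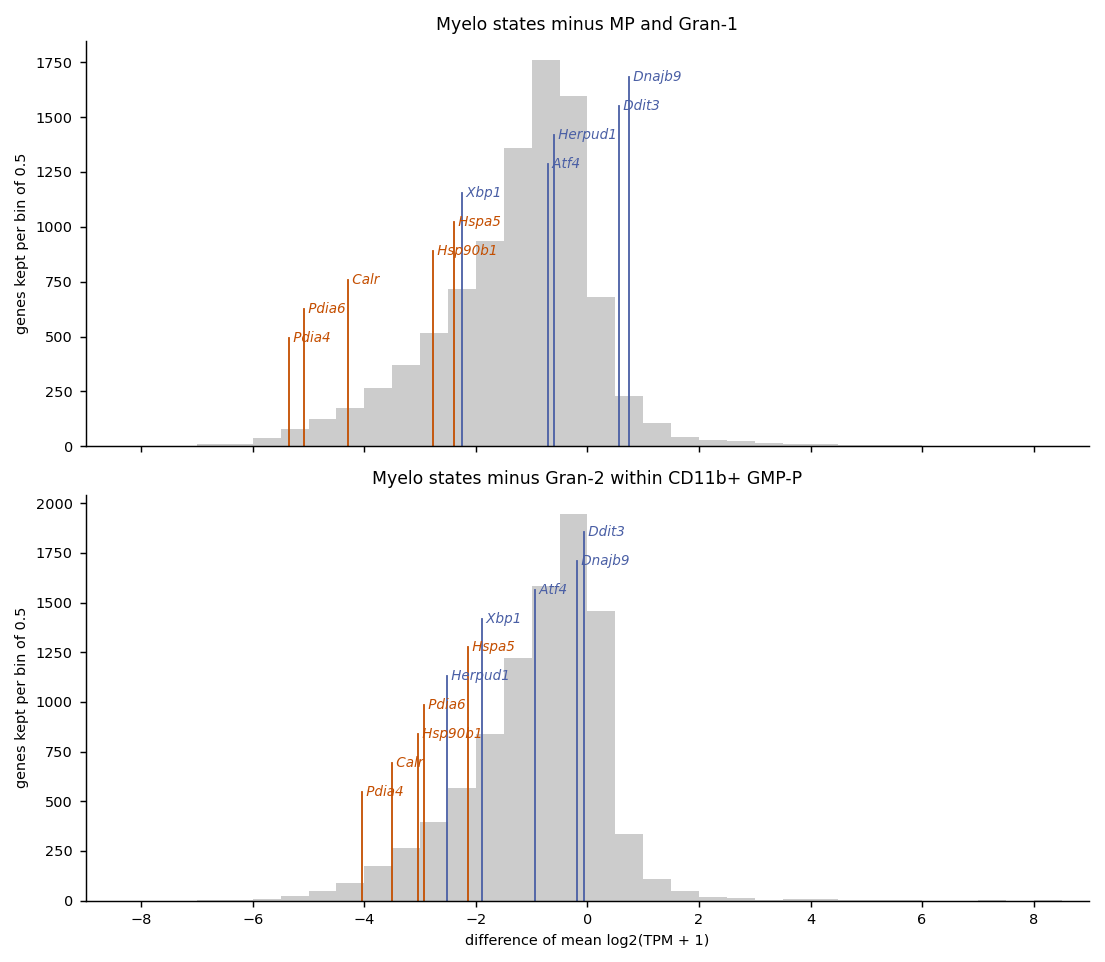
Differences of mean log2(TPM + 1) of the 10 members, drawn against the distribution over all kept genes, for the Myelo states minus MP and Gran-1 and for the comparison within the CD11b+ GMP-P run. In the first, Pdia4 (−5.36), Pdia6 (−5.09) and Calr (−4.30) lie far below the median of all kept genes (−1.02), and Dnajb9 (0.74) and Ddit3 (0.56) above it.

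Per cell, the 5 chaperones were seldom all present in the Myelo states. All 5 were detected in 7 of 34 Myelo cells (20.6%, 8.70 to 37.9) and in 25 of 25 MP and Gran-1 cells (100%, 86.3 to 100). Their summed level had a median of 1082 TPM in Myelo cells (63.9 to 5141) and 4304 TPM in MP and Gran-1 cells (1494 to 9035). Both ranges share values between 1494 and 5141 TPM, so some Myelo cells held as much chaperone transcript as some MP or Gran-1 cells. Of the 5, Pdia4 was the one most often missing. At a stricter limit of 10 TPM all 5 were detected in 14.7% of Myelo cells and 92% of MP and Gran-1 cells. With each cell's 20 most abundant genes left out of the scaling, all 5 were detected in 32.4% of Myelo cells and 100% of MP and Gran-1 cells.

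Within the CD11b+ GMP-P run, the chaperones could be followed from Gran-1 (3 cells) through Gran-2 (13), Myelo-1 (5) and Myelo-2 (11) to Myelo-4 (7). They did not decline together. Pdia4 averaged 10.23 in Gran-1, 5.84 in Gran-2, 1.67 in Myelo-1, 2.16 in Myelo-2 and 1.42 in Myelo-4, so nearly all of its decline lay before Myelo-2. Pdia6 averaged 10.26, 7.13, 5.91, 4.05 and 3.35 in the same order. Hspa5 averaged 10.33, 9.77, 10.11, 7.89 and 6.27, so that Gran-1, Gran-2 and Myelo-1 lay within 1 SD of each other and the lower values began at Myelo-2.
Hsp90b1 averaged 10.12, 9.32, 9.03, 6.72 and 3.31, and Calr 10.06, 8.83, 8.63, 5.50 and 2.63, with their largest steps after Myelo-1. In Myelo-1 the 5 cells held Hspa5 at 8.08, 9.91, 10.68, 11.08 and 10.78. The same cells, in the same order, held Pdia4 at 0, 0.79, 0, 0.75 and 6.80. Hspa5 was thus abundant in Myelo-1 cells in which Pdia4 was at or near 0, apart from 1 cell that held both. Groups of 3 to 13 cells and SDs of up to 4.34 limit how firmly the order of these steps can be stated.

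**Figure D3:**
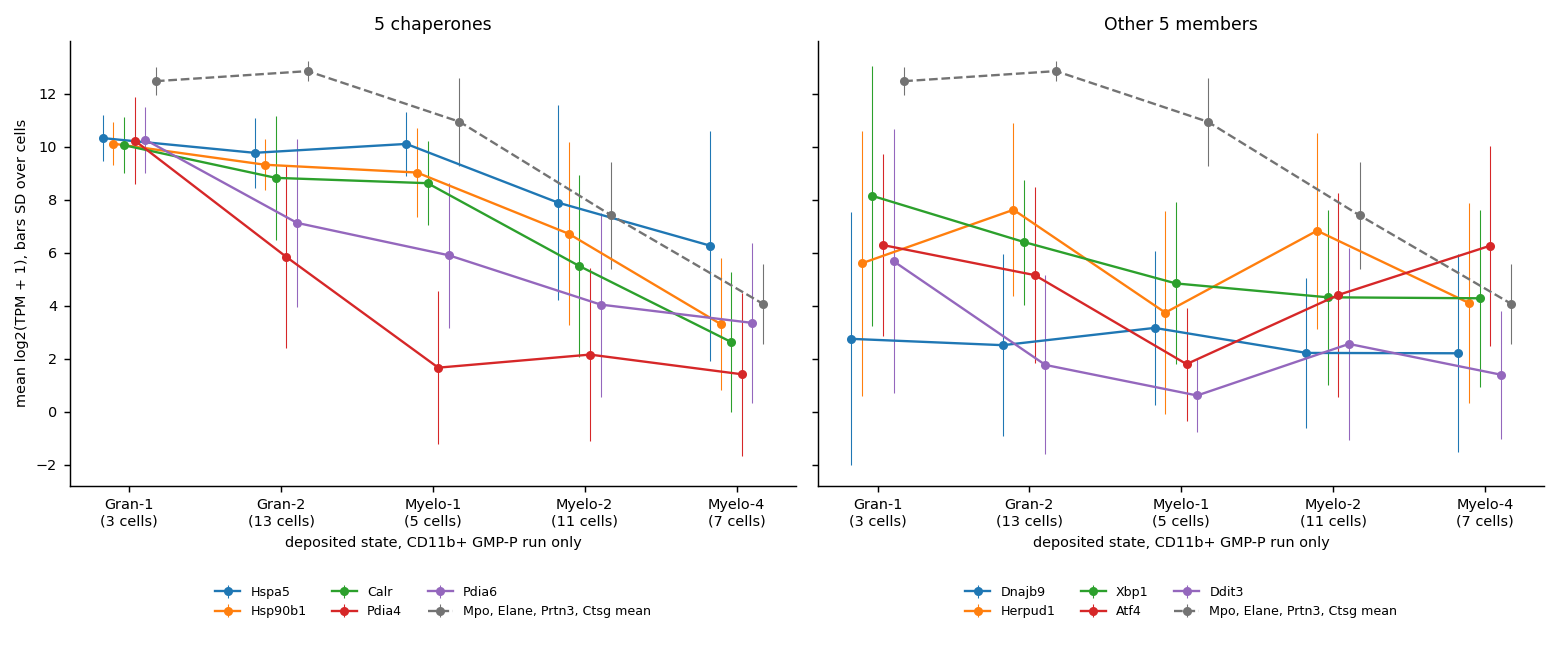
Mean log2(TPM + 1) with SD over cells of the 5 chaperones (left) and of the other 5 members (right) by deposited state within the CD11b+ GMP-P run, with the mean of Mpo, Elane, Prtn3 and Ctsg as a dashed line. Pdia4 is at 1.67 in Myelo-1 while Hspa5 is at 10.11. SD bars that pass below 0 describe spread and not possible values.

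The mean of the 4 primary granule transcripts was 12.47, 12.85, 10.94, 7.41 and 4.07 along the same 5 states of this run. The mean of the 5 chaperones was 10.20, 8.18, 7.07, 5.26 and 3.40. The primary granule values of Gran-2 and Gran-1 lay within 1 SD of Gran-1 (0.54), and Ctsg alone averaged 11.03 in Gran-2 and 12.004 in Gran-1. Pdia4 and Pdia6 averaged 5.84 and 7.13 in Gran-2, against 10.23 and 10.26 in Gran-1. In the 13 Gran-2 cells Pdia4 ranged from 0 to 9.04 with a median of 7.46, and Pdia6 from 0 to 10.18 with a median of 8.59. The 3 Gran-1 cells on the other side of this comparison held Pdia4 at 10.62, 11.64 and 8.45 and Pdia6 at 11.11, 10.84 and 8.84. The ranges overlapped for both genes. The comparison rests on these 3 Gran-1 cells: the 9 Gran-1 cells of the undated run averaged 6.18 ± 2.25 for Pdia4 and 13.31 for the primary granule mean.

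Set against Gran-2 of the same run, the Myelo states (24 cells) were lower in 7 of the 10 members, where 39.6% of kept genes and 77.6% of the abundant ones were lower. Pdia4 averaged 1.80 ± 2.95 in Myelo cells and 5.84 ± 3.43 in Gran-2 cells, a difference of −4.04. Calr differed by −3.51, Hsp90b1 by −3.03, Pdia6 by −2.93, Herpud1 by −2.51, Hspa5 by −2.14 and Xbp1 by −1.89. Atf4 (−0.93), Dnajb9 (−0.19) and Ddit3 (−0.06) stayed under 1. As the log2 ratio of mean TPM, Herpud1 (−0.75) and Hspa5 (−0.47) also stayed under 1, which left 5 members lower.
The 5 chaperones were all detected in 4 of the 24 Myelo cells (16.7%, 4.74 to 37.4) and in 10 of the 13 Gran-2 cells (76.9%, 46.2 to 94.96). Mpo averaged 8.56 ± 3.38 in Myelo cells and 14.19 ± 0.62 in Gran-2 cells (−5.63). With cells of at least 2000 detected genes alone, which leaves 12 Myelo cells, the median of the 5 chaperones was −1.89 in place of −3.03.

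The means of Herpud1 and Atf4 did not decline step by step along these states, whereas those of Xbp1 declined as far as Myelo-2. Herpud1 averaged 5.60 in Gran-1, 7.62 in Gran-2, 3.74 in Myelo-1, 6.83 in Myelo-2 and 4.11 in Myelo-4. Atf4 averaged 6.29, 5.16, 1.80, 4.41 and 6.27 in the same order, so that its lowest mean was in Myelo-1 and its Myelo-4 mean was close to that of Gran-1. Xbp1 averaged 8.15, 6.40, 4.84, 4.32 and 4.28, the first from Gran-1 cells at 2.83, 12.46 and 9.15. In late July GMP cells Xbp1 averaged 3.26 in Myelo-2 (7 cells) and 5.46 in Myelo-4 (3 cells). The SDs of these 3 genes reached 4.99 and the neighbouring states overlapped. Atf4 was detected in 6 of 7 Myelo-4 cells, in which Calr was detected in 5 and Pdia4 in 2.

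MP and Gran-1 could be set against each other within the undated run, with 9 Gran-1 and 11 MP cells. Differences of the 5 chaperones ran from −0.75 (Pdia4) to 0.74 (Calr), none beyond the SD of the MP cells. In Gran-1 cells 2 of the 10 members were higher, where 23% of all kept genes were higher. Xbp1 averaged 6.99 ± 2.14 in Gran-1 and 5.77 ± 2.41 in MP cells (1.22), and Herpud1 averaged 6.41 ± 2.29 in Gran-1 and 5.22 ± 3.55 in MP cells (1.19). Ddit3 was detected in 0 of 9 Gran-1 cells (a count of 0 that allows up to 33.3%) and in 3 of 11 MP cells. Over all runs and the states with at least 5 cells, Xbp1 had its highest mean in Gran-1 (7.22 ± 2.65) and was detected in all 14 of its cells, followed by Gran-2 (6.48 ± 2.28). The highest Xbp1 value of any cell, 12.46, was in a Gran-1 cell of the CD11b+ GMP-P run.

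The chaperones were not restricted to granulocytic states. Within the undated run the 20 MP and Gran-1 cells differed from the 32 Mono cells by −0.04 (Hsp90b1) to 0.98 (Pdia4) in the 5 chaperones. Hsp90b1 averaged 9.50 ± 0.84 in MP and Gran-1 cells and 9.53 ± 0.85 in Mono cells. Of the 10 members, 1 was higher in MP and Gran-1, where 8.09% of kept genes were higher, and 1 was lower, where 6.87% were lower. Xbp1 was the higher one at 6.31 ± 2.32 in MP and Gran-1 cells and 4.89 ± 2.70 in Mono cells (1.43). Atf4 was the lower one at 4.58 ± 3.34 in MP and Gran-1 cells and 5.75 ± 2.82 in Mono cells (−1.17). Mpo averaged 14.22 ± 0.64 in MP and Gran-1 cells and 13.56 ± 0.83 in Mono cells, so the Mono cells of these mice were also rich in primary granule transcript.

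Plasma cells are known for abundant secretory chaperones, so their markers were examined in the cells with high chaperone levels. Of the B lineage and plasma markers in the table, Ms4a1, Igj, Mzb1, Irf4 and Tnfrsf17 were at 0 in all 121 cells. Cd79b was detected in 35 cells. The summed markers reached at most 0.27 TPM in Myelo cells and 728.5 TPM in MP and Gran-1 cells, with a median of 0 in both. Monocyte markers, at 9 genes, had a summed median of 2.04 TPM (0 to 1739) in Myelo cells and 383.8 TPM (3.88 to 3636) in MP and Gran-1 cells, with Cx3cr1 at 0 in the Myelo cells. Neutrophil markers, at 12 genes, had a summed median of 436222 TPM in Myelo cells and 66572 TPM in MP and Gran-1 cells. The part of these in the chaperone differences was not tested.

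Dnajb9 stood apart among the members by its level in cMoP, a state of 5 undated cells. Those cells held Dnajb9 at 5.76, 8.33, 7.99, 4.45 and 4.28, a mean of 6.16 ± 1.92 with detection in 5 of 5. Among the states with at least 5 cells, the next highest mean was 3.17 ± 2.92 in Myelo-1, then 2.49 ± 3.31 in Gran-2. In Mono cells Dnajb9 averaged 1.15 ± 2.24, was detected in 10 of 38 (26.3%, 13.4 to 43.1) and reached 7.59, so the ranges of cMoP and Mono overlapped. Among the same states Herpud1 was also highest in cMoP, at 7.83, 8.44, 9.07, 5.24 and 8.81, a mean of 7.88 ± 1.54. The next Herpud1 mean among them was 7.39 ± 3.48 in Gran-2, which did not differ from it beyond that spread. The same 5 cells had Ddit3 at 0 and averaged 2.76 ± 2.94 for Atf4.

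Ddit3 was detected in few cells of any state, and nearly always together with Atf4. Of the 25 cells with Ddit3, 24 also had Atf4, which was itself detected in 96 of the 121 cells. The exception was 1 Gran-2 cell of the CD11b+ GMP-P run. Over the states with at least 5 cells, the mean of Ddit3 ran from 0 in cMoP to 2.31 ± 3.35 in Myelo-2, where it was detected in 7 of 18 cells (38.9%, 17.3 to 64.3). Neighbouring states did not differ beyond these spreads. Ddit3 overlaps Mars on the opposite strand in GENCODE vM21, and whether strand was used in counting is not given, so reads of the overlap cannot be told apart. Mars averaged 1.97 over all cells. Hsp90b1 and Pdia6 overlap 1810014B01Rik and Atp6v1c2 in the same way, which averaged 1.13 and 0.01. Calr has a pseudogene copy with which reads could be shared.

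Between the labelled populations, 4 of the 10 members were lower in CD11b+ GMP-P than in GMP cells, where 28.8% of kept genes were lower, and 1 was higher, where 2.3% were higher. Calr averaged 7.24 ± 3.47 in CD11b+ GMP-P and 9.36 ± 1.60 in GMP cells (−2.12). Pdia6 averaged 6.19 ± 3.65 in CD11b+ GMP-P and 8.25 ± 2.47 in GMP cells (−2.05). Hsp90b1 averaged 7.86 ± 3.06 in CD11b+ GMP-P and 9.27 ± 1.02 in GMP cells (−1.42). Pdia4 averaged 4.19 ± 4.05 in CD11b+ GMP-P and 5.25 ± 3.18 in GMP cells (−1.07), but by the log2 ratio of mean TPM it was higher in CD11b+ GMP-P by 0.67. By that ratio none of the 10 was lower by 1, with Calr at −0.59, Pdia6 at −0.53 and Hsp90b1 at −0.29. With cells of at least 2000 detected genes alone, Pdia6 (−1.20) was the 1 member lower. Ddit3 was the higher one at 2.23 ± 3.43 in CD11b+ GMP-P and 0.43 ± 1.38 in GMP cells (1.80), with detection in 15 of 46 CD11b+ GMP-P and 10 of 75 GMP cells.

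These differences depended on which GMP cells were used. Against the 62 undated cells, 4 of the 10 members were lower, where 36.7% of kept genes were lower. By the ratio of mean TPM 0 were lower, and 2 were in cells with at least 2000 detected genes. Ddit3 was higher by 1.93, where 2.77% of kept genes were higher. Against the 13 late July GMP cells none of the 10 was lower, where 5.08% of kept genes were lower. There, 3 members were higher, where 11.1% of kept genes were higher. These were Hspa5 at 8.83 ± 3.13 in CD11b+ GMP-P and 7.21 ± 3.17 in late July GMP cells (1.63), Ddit3 (1.20) and Dnajb9 (1.05). Calr, with the largest difference against all GMP cells, averaged 7.24 ± 3.47 in CD11b+ GMP-P and 7.52 ± 2.38 in late July GMP cells (−0.28). Of the 46 CD11b+ GMP-P cells 24 had a Myelo state, as had 10 of the 13 late July GMP cells and none of the 62 undated cells.

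At a fixed state, the populations could be compared within Myelo-2 and within Mono. In Myelo-2, with 11 CD11b+ GMP-P and 7 late July GMP cells, 2 of the 10 members were lower, where 18.4% of kept genes were lower, and 1 was higher, where 9.38% were higher. Calr averaged 5.50 ± 3.44 in CD11b+ GMP-P and 6.88 ± 2.47 in GMP cells (−1.38), and Hsp90b1 averaged 6.72 ± 3.45 in CD11b+ GMP-P and 7.92 ± 1.15 in GMP cells (−1.20). Both turned to slightly higher, by 0.16 and 0.05, as the log2 ratio of mean TPM. Xbp1 was higher at 4.32 ± 3.30 in CD11b+ GMP-P and 3.26 ± 1.87 in GMP cells (1.06). Median detected genes were 2261 in the CD11b+ GMP-P cells and 2570 in the GMP cells.

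In Mono, all 10 members averaged more in the 6 CD11b+ GMP-P cells than in the 32 undated GMP cells, and 7 were higher by at least 1, where 17.4% of kept genes were higher and the median over kept genes was −0.15. The largest differences were those of Ddit3, Herpud1 and Atf4. Ddit3 was at 6.50, 0, 0, 0, 4.57 and 10.52 in the CD11b+ GMP-P cells, against 0 to 3.36 with a median of 0 in the undated GMP cells. It was detected in 3 of the 6 CD11b+ GMP-P and 3 of the 32 undated GMP cells, with means of 3.60 ± 4.38 in CD11b+ GMP-P and 0.19 ± 0.68 in undated GMP cells (3.40). Mars, its overlapping neighbour, went the other way at 1.68 ± 3.04 in CD11b+ GMP-P and 2.42 ± 2.49 in undated GMP cells.
Herpud1 was at 9.63, 6.27, 10.96, 8.98, 10.22 and 5.23 in the same CD11b+ GMP-P cells, against 0 to 9.22 with a median of 6.83 in undated GMP cells, a difference of means of 3.12. Atf4 was at 2.12, 9.22, 9.06, 8.91, 7.58 and 8.39 in CD11b+ GMP-P cells, against 0 to 8.97 with a median of 6.79 in undated GMP cells (1.80). The ranges of all 3 genes overlapped between the runs, and 3 of the 6 cells had Ddit3 above every undated cell.

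Hspa5 in Mono was at 10.65, 10.97, 12.23, 11.56, 10.996 and 8.83 in CD11b+ GMP-P cells, against 1.05 to 10.61 with a median of 9.81 in undated GMP cells. Of the 6 cells, 5 were thus above all 32 undated cells, and the difference of means was 1.61. Pdia4 (1.50), Pdia6 (1.31) and Xbp1 (1.25) were also higher, while Dnajb9 (0.51), Calr (0.37) and Hsp90b1 (0.32) were not. Detected genes had a median of 4434 in the CD11b+ GMP-P and 4671.5 in the undated GMP Mono cells. As the log2 ratio of mean TPM, Pdia6 (0.84) and Xbp1 (0.35) were no longer higher by 1, and Dnajb9 changed sign (−0.19). In the list of ATF4 and CHOP targets 2 of the 11 kept genes were higher and 4 lower. Over all kept genes 17.4% were higher and 18.8% lower, so the count of higher targets was near the background. Ppp1r15a (GADD34), which restores translation after stress, was higher by 3.99, and Atf3, a stress-induced transcription factor, by 2.45. Those lower were Eif4ebp1 (−1.42), Cebpb (−1.39), Slc3a2 (−1.28) and Psat1 (−1.05). The 6 cells come from 1 run and the 32 from another, so population, run and cell handling cannot be told apart.
Other genes differed between these Mono cells too. Of 12 secondary and tertiary granule genes 9 were higher in the CD11b+ GMP-P cells (median 2.59). Ngp, a neutrophil granule gene, averaged 7.45 ± 2.01 in the CD11b+ GMP-P cells with a lowest value of 5.17, and it was at 0 in all 32 undated GMP cells. This split was not particular to Mono. Over all states Ngp was detected in all 46 CD11b+ GMP-P and all 13 late July GMP cells. It was detected in 0 of the 62 undated cells (a count of 0 that allows up to 4.84%), among them 9 Gran-1 cells. Camp averaged 6.20 ± 1.83 in CD11b+ GMP-P and 0.20 ± 1.15 in undated GMP cells. Of 10 primary granule genes 4 were higher (median 0.95), and of 18 chaperones of the cytosol and mitochondria 8 were higher (median 0.69), with Dnajb1 (4.07) and Hspa1a (3.51) first. Their part in the differences of the members was not tested.

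**Figure D4:**
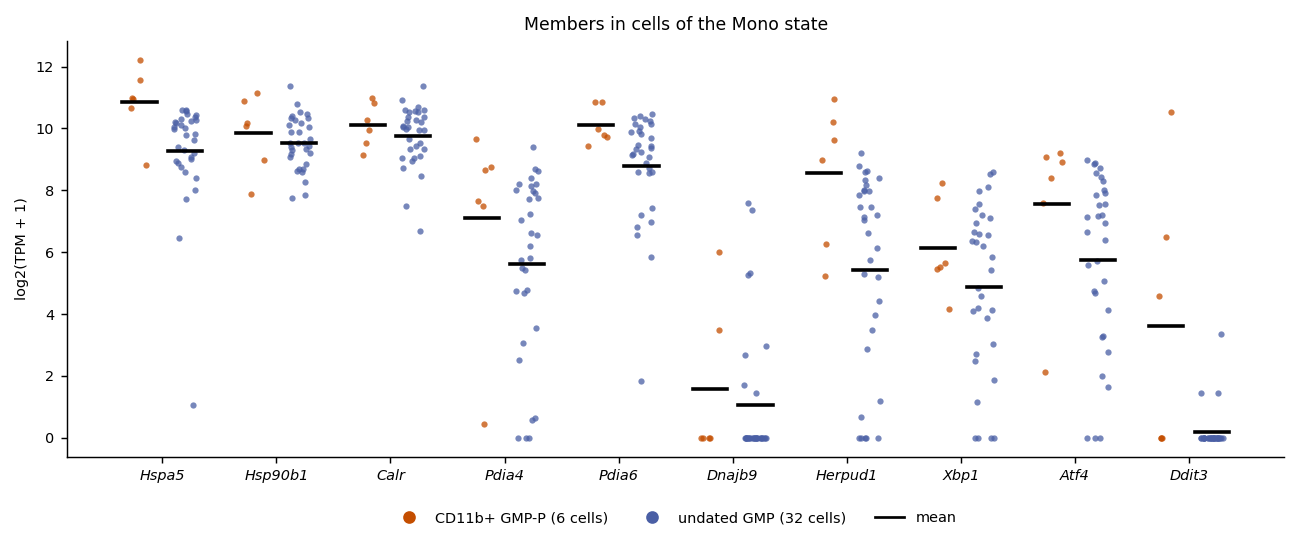
log2(TPM + 1) of the 10 members in each cell of the Mono state, CD11b+ GMP-P cells left and undated GMP cells right for each gene, with a bar at the mean. Of the 6 CD11b+ GMP-P cells, 5 lie above all 32 undated GMP cells for Hspa5 and 3 for Ddit3.

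The wider secretory pathway was examined with lists of genes in the order of a protein's path. All differences are Myelo minus MP and Gran-1, where 50.4% of kept genes were lower. Of 19 genes of signal recognition, translocon and signal peptidase 18 were lower (median −3.42), led by Ssr4 (−6.72) and Ssr2 (−5.83) of the translocon-associated complex. The signal peptidase subunit Spcs3 (−5.68) and the channel subunit Sec61a1 (−4.76) followed. Of 9 genes of the oligosaccharyltransferase, which adds N-glycans, 8 were lower (median −5.06), led by Ostc (−6.15), Krtcap2 (−6.08), Dad1 (−5.99) and Ddost (−5.26). Of 16 other endoplasmic reticulum chaperones and folding enzymes 14 were lower (median −3.09). They included the BiP partner Sdf2l1 (−5.64), the prolyl isomerase Ppib (−5.09), the disulfide isomerase Txndc5 (−4.63) and calnexin, Canx (−3.70).

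Genes of degradation and of signalling were examined next. Of the 12 kept genes of endoplasmic reticulum-associated degradation 8 were lower (median −1.57), led by the segregase Vcp (−3.43) and the lectin Edem2 (−3.31). Of 8 stress sensors and their proteases 2 were lower (median −0.74), Mbtps1 (−2.44), which cleaves ATF6, and Atf6b (−1.84). Of 11 kept ATF4 and CHOP targets 5 were lower (median −0.45), with the serine and one-carbon enzymes Psat1 (−4.37) and Shmt2 (−3.99) lowest. Some genes of the last pair of lists average under 1 in MP and Gran-1, among them Ern1 (0.78), Creb3l2 (0.40), Mbtps2 (0.37) and Atf3 (0.38), and so could not be lower by 1. The sizes of the differences were therefore not compared between lists. Chaperones of the cytosol and mitochondria, which serve no secretory route, were lower in 15 of 18 (median −3.55), for example Cct5 (−5.93) and Hspa9 (−5.42). Lower values were therefore not limited to the secretory route.
Of 10 primary granule genes 9 were lower (median −5.08), with Ctsg at −7.28 and Mpo at −5.52. All 12 secondary and tertiary granule genes were higher (median 8.04), for example Ngp (14.60), Camp (13.39) and Ltf (11.64). These products also pass through the endoplasmic reticulum, and a link between granule transcripts and chaperone levels was not tested.

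Within Myelo minus Gran-2 of the CD11b+ GMP-P run, 39.6% of kept genes and 77.6% of the abundant ones were lower. The oligosaccharyltransferase list again had 8 of 9 genes lower (median −4.06), the translocon list 15 of 19 (−2.41) and the other endoplasmic reticulum chaperones 13 of 16 (−2.64). The cytosolic and mitochondrial chaperones had 16 of 18 lower (−2.73) and the sensors 1 of 8 (−0.42), among which Atf6 (0.87), Ern1 (0.16) and Mbtps2 (0.11) averaged under 1 in Gran-2.

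From cell to cell, the chaperone mean went with the primary granule mean in each of the 3 sets of cells. Spearman's rho was 0.79 over the 46 CD11b+ GMP-P cells, 0.49 over the 13 late July GMP cells and 0.50 over the 62 undated cells. Cells of a set share a run name or date and can differ in depth. The chaperone mean went as closely with the number of detected genes (0.82, 0.53 and 0.50). The primary granule mean also went with that number (0.82, 0.53 and 0.40). In the CD11b+ GMP-P run rho with the primary granule mean was highest for Calr (0.76) and Hsp90b1 (0.69) and lower for Hspa5 (0.46). The order differed in the other sets, with Pdia4 highest (0.68) and Calr at 0.29 in late July GMP cells, and Calr at 0.49, Hspa5 at 0.45 and Hsp90b1 at 0.10 in undated cells. With at least 2000 detected genes, rho of the chaperone mean was 0.58 over 34 CD11b+ GMP-P cells. Pairs of the 5 chaperones had a median rho of 0.47, 0.41 and 0.27 in the 3 sets, against 0.14, 0.23 and 0.09 for the other 35 pairs of members. Xbp1 transcript went weakly with each of the 5 chaperones in the CD11b+ GMP-P run, with rho from 0.14 (Hspa5) to 0.28 (Pdia4).

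**Figure D5:**
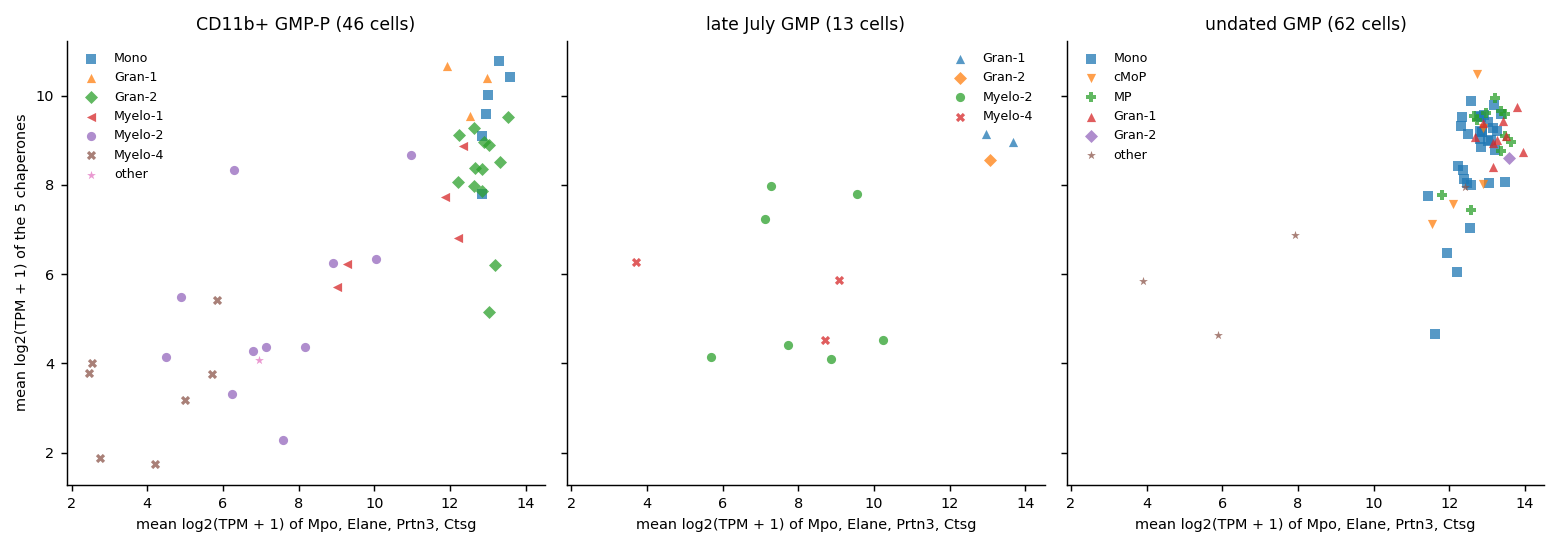
Mean log2(TPM + 1) of the 5 chaperones (y) against that of Mpo, Elane, Prtn3 and Ctsg (x), 1 point per cell, in the 3 sets of cells, with symbols for the deposited state. Myelo-2 and Myelo-4 cells lie to the lower left, and the sets have rho of 0.79, 0.49 and 0.50.

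Over the 8 states with at least 5 cells, the genes whose means were most like the chaperone mean were Hnrnpa1 (Pearson r 0.994), Erp44 (0.993), Rpl18 (0.991), Myb (0.990) and Morf4l1 (0.990). Of the 9140 kept genes that are no members, 723 (7.91%) had r of at least 0.9, so such a course over states was common. Erp44, a chaperone of the early secretory route, averaged 4.89 in Gran-1 and 0.19 in Myelo-4. Ctsg (0.985) and Mpo (0.982) were close to it too. Among the members outside the mean, r was 0.71 for Xbp1, 0.44 for Herpud1, 0.07 for Dnajb9, 0.00 for Atf4 and −0.36 for Ddit3.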

How the data were processed

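The members and gene lists were chosen with earlier results of these data known, and support nothing by their choice. Per the submitters' processing notes, Bowtie2, RSEM and mm9 were used. Their versions and the counting settings were not given in the sources. By its values, the authors' deposited table holds log2(TPM + 1) per gene and cell: back-transformed cells summed to 999517 to 1001450. Of all values 81.7% were 0. Another deposited table gives the states. Means, SDs, medians, shares with exact intervals, differences of means and Spearman correlations were computed with Python 3.11.15, pandas 2.3.3, numpy 2.4.6 and scipy 1.17.1. The calculation of the differences was checked on simulated cells in larger groups, changing only widely detected genes. That check does not bear on small groups or scarce genes. Named genes were all 10 members, 7 granule genes, up to 4 genes of each list with the largest difference between Myelo and MP and Gran-1, and the 5 genes most like the chaperone mean. Atf3, Ppp1r15a, Cebpb, Mars, Cd79b and the set of 888 abundant genes were chosen after values were seen. A share of 0 carries the limit that 3 cells set. Gene overlaps come from GENCODE vM21 and promoters from RefSeq, both on another build than mm9. Alternatives were other pseudocounts and scalings, no filter, a stricter detection limit, and leaving out low cells or the late July GMP cells.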

Additional observations from a re-analysis of the deposited data

Results flagged for a closer look

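Among 30 combinations of a state and a member with 4 to 10 cells, 4 had 1 cell far from the others by Dixon's criterion at 95%. Chance alone flags about 1 in 20 groups of normally distributed values. Values with many zeros are not so distributed, so that rate does not hold here. A group with 1 cell above 0 and the others at 0, as for Ddit3 in Myelo-1, is always flagged. Pdia6 in cMoP was 6.10 in 1 cell and 9.28 to 10.14 in the other 4. In Myelo-1, Pdia4 was 6.80 in 1 cell and 0 to 0.79 in the others, and Atf4 was 5.50 in 1 cell and 0 to 1.34 in the others. Ddit3 in Myelo-1 was 3.09 in 1 cell and 0 in the other 4. The 3 values of Myelo-1 were in 3 different cells. Of these results, the Myelo-1 mean of Pdia4 (1.67) rests on its 1 high cell.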

How the results depend on the processing

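Over 32 counts, medians, shares and correlations, 149 of 184 alternative values kept their place and 35 moved, with 0 reversed. Over 108 values of single genes and shares of kept genes, 634 of 708 kept their place, 70 moved and 4 reversed. Single genes and medians kept their place if they shifted by less than the SD over cells, a wide limit here. They were reversed only if the main difference was at least 1 in size and changed sign. A value that kept its place can thus have lost its call, as Hspa5 did in Myelo against MP and Gran-1 (−2.40 and at the other end −0.53). The chaperone differences of the Myelo states kept their sign throughout: against MP and Gran-1 the median ran from −4.76 to −2.20, and against Gran-2 from −3.47 to −1.54. Within Myelo-2 the median (−0.53) ran from −1.10 to 0.16 and has no settled sign. With the log2 ratio of mean TPM, Pdia4 reversed in CD11b+ GMP-P against all GMP (0.67) and undated GMP (0.71), as did Hsp90b1 (0.046) and Calr (0.16) within Myelo-2. The causes were not tested.

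Small counts of members moved most. Members higher in Myelo than in MP and Gran-1 numbered 1 in place of 0 with a pseudocount of 0.1, without each cell's 20 most abundant genes, or in cells with at least 2000 detected genes, and 1 under the last setting against Gran-2. In Gran-1 against MP, lower members numbered 1 with a pseudocount of 0.1 and 2 with the ratio of mean TPM, and higher ones 0 with a pseudocount of 10 and 1 with the ratio. In MP and Gran-1 against Mono, a pseudocount of 10 left 0 lower and 0 higher, and 2 were higher with a pseudocount of 0.1, with the ratio, or without the 20 genes. In CD11b+ GMP-P against GMP, lower members numbered 0 with the ratio and 1 with at least 2000 genes, and higher ones 2 with a pseudocount of 0.1 or without the 20 genes and 3 with the ratio. Against undated GMP these were 0 and 2 lower, and 2, 3 and 4 higher. Against late July GMP 1 was higher with a pseudocount of 10 and 5 with the ratio. Within Myelo-2, 0 were lower with a pseudocount of 10 or the ratio and 1 with at least 2000 genes. There, 0 were higher with a pseudocount of 0.1, without the 20 genes or with upper quartile scaling, 3 with the ratio and 5 with at least 2000 genes. Spearman's correlation of the chaperone mean with the primary granule mean in cells with at least 2000 genes was 0.58 (34 CD11b+ GMP-P cells) and 0.63 (11 late July GMP cells). No paired analysis was possible because the labels name no animal, and no comparison was tested.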
